A study of Mus musculus with 15 samples.

Results

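Accessible chromatin of haematopoietic stem cells (HSC) lacking mTOR was compared with that of HSC carrying a knock-in Mtor allele, through the peaks that were strong in one library and not among the strong peaks of the other. ATAC-seq, in which a transposase cuts open DNA, gave 1 peak list for KO and 1 for KI. On chromosomes 1 to 19 and X the KO list held 19174 peaks and the KI list 28373, and the 17316 highest-scoring peaks of each were kept. A peak was called KO-only or KI-only when not 1 bp of it overlapped a kept peak of the other list. This gave 4280 KO-only peaks, 24.7% of the kept KO peaks, and 4409 KI-only peaks, 25.5% of the kept KI peaks, or 8689 of 34632 peaks in all. Equal list sizes force these shares to be similar, so the position and the genes of the peaks are described rather than their number.

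The series has 15 samples from adult mice, of which 12 are RNA-seq samples that were not analysed here and 3 are ATAC libraries, 1 per genotype. KO mice were Mx1-Cre+/-;mTORflox/flox, KI mice Mx1-Cre+/-;mTORflox/knockin and WT control mice Mx1-Cre-/-;mTORflox/flox, so both mutants carried Cre and the controls did not, and all 3 carried a floxed Mtor allele. Sorted HSC came from mice given poly(I:C), which induces the interferon-responsive Mx1 promoter that drives Cre, and 50000 cells were transposed for 30 min at 37 °C. That promoter is not restricted to HSC. The series title names a kinase-independent role of mTOR, while the change in the knock-in allele is not given in the sources used here. In the sample titles WT and KO carry the word re-analyzed, which KI lacks, and the protocol of the KI library names all 3 genotypes where that of the others names WT and KO. A batch difference and the KI genotype therefore cannot be told apart. Whether animals were pooled is not given. With 1 library a side there was no replicate error, no test and no p-value, and every difference is one between libraries.

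mTOR is a serine/threonine kinase that works in a pair of complexes. mTORC1, built around Rptor, promotes ribosome production, protein synthesis and lipid synthesis when amino acids and growth factors are present, and mTORC2, built around Rictor, phosphorylates AKT. In HSC the pathway is known for its part in the balance between quiescence and proliferation. A protein without kinase activity can still hold a complex together, and the series title points to such kinase-independent functions.

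The windows of 11 start sites that had a peak in one list only are printed first, each from a different gene, because the results on growth, cytokine, cell cycle, stress and interferon genes turn on them. Each runs from 250 bases before to 30 bases after the annotated start, 5′ to 3′ on the gene's strand, from RefSeq (GRCm38.p6, the assembly behind mm10). Capitals mark matches on either strand to ETS CCGGAAGT, STAT TTCNNNGAA, SP/KLF GGGCGG, NF-Y CCAAT, CRE TGACGTCA, E-box CACGTG, AP-1 TGANTCA, NRF1 GCGCATGC, the GATA motif AGATAA, RUNX TGTGGT, FOX GTAAACA, ISRE GAAANNGAA or a heat shock element GAANNTTC. A match is a description of letters and not a bound site. Bcl2l11 has a further start, not printed, with peaks in both lists, and Cdkn2a one with no peak in either. Of these 11, the first 6 had a KI-only peak over the start and the last 5 a KO-only peak.
Mtor, chr4:148448332-148448611, + strand: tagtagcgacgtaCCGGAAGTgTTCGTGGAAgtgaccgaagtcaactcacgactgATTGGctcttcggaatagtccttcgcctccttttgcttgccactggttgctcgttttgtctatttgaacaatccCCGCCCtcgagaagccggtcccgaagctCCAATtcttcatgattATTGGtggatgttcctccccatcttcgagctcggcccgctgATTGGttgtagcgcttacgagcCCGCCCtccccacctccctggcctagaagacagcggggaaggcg
Cish, chr9:107296409-107296688, + strand: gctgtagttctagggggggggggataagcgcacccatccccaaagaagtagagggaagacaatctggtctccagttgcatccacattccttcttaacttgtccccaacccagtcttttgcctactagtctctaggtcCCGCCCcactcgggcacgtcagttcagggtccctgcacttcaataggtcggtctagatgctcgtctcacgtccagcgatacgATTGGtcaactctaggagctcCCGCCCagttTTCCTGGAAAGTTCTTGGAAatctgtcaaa
Taf1a, chr1:183388735-183389014, + strand: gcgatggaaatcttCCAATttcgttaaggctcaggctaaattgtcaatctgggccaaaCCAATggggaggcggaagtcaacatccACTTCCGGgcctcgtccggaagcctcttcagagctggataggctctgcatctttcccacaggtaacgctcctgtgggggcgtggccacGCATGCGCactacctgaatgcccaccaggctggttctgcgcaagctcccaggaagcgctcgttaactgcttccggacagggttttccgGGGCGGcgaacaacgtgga
Runx1, chr16:92826045-92826324, - strand: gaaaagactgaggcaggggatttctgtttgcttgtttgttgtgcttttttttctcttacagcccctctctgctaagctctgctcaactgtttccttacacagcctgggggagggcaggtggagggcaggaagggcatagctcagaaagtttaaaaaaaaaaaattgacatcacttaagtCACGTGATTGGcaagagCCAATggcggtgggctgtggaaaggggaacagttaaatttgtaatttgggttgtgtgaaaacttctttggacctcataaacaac
Bcl2l11, chr2:128125788-128126067, + strand: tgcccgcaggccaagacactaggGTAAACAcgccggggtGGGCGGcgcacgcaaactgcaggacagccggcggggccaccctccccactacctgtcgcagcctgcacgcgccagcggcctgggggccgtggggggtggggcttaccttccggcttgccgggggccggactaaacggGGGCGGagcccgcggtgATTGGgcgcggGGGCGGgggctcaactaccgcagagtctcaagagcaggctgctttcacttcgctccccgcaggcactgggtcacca
Cdkn2b, chr4:89311003-89311282, - strand: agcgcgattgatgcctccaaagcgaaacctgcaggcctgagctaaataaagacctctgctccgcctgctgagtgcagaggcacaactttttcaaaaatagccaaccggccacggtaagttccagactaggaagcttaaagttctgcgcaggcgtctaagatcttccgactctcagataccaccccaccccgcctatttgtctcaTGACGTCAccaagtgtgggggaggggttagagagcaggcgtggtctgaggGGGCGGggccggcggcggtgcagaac
Cdkn2a, chr4:89294590-89294869, - strand: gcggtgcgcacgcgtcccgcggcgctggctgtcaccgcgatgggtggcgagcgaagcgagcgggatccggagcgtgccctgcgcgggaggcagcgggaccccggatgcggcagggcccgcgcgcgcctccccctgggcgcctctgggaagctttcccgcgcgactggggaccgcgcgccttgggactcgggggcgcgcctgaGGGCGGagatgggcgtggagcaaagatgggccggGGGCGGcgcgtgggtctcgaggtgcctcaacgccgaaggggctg
Hspa1a, chr17:34972127-34972406, - strand: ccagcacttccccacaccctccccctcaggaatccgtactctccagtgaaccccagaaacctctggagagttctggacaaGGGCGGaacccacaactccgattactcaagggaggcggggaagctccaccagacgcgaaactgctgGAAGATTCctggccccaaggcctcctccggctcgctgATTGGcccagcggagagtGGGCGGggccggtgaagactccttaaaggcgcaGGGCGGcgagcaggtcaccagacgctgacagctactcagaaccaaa
H3c3, chr13:23745492-23745771, - strand: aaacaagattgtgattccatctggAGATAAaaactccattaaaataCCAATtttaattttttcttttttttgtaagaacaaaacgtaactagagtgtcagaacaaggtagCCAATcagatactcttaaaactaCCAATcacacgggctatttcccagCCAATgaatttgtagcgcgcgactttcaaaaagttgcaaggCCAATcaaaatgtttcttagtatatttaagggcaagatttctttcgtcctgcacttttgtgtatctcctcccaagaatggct
Fas, chr19:34290409-34290688, + strand: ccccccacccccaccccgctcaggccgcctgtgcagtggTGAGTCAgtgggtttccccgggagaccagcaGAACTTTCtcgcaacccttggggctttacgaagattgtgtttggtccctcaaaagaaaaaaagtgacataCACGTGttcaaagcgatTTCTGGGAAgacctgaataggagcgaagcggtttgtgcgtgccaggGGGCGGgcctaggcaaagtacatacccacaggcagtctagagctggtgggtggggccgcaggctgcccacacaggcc
Gbp2, chr3:142620413-142620692, + strand: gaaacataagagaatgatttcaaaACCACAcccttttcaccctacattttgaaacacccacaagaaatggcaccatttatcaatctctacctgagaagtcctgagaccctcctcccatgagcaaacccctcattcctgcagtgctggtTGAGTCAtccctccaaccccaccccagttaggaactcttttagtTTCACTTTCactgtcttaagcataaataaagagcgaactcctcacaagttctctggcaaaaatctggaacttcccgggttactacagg
The Cish window holds 2 STAT matches, at positions 1 and 12 counted from the start, and the heat shock match at position 7 overlaps both, so its letters are not a separate feature. The H3c3 window holds 5 NF-Y matches, the Mtor window 4. The Hspa1a window holds a heat shock match at position -104. The Fas and Gbp2 windows each hold an AP-1 match, and that of Gbp2 an ISRE match at position -58.

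The cell type was checked against marker genes. A gene was counted as having a gene-end peak when a kept peak lay within 1 kb of either annotated end. Of 30 HSC transcription factors, 15 had one in both lists, among them Mecom (rank 4964 of the KO list and 7542 of the KI list, where rank 1 is the highest score), Hlf (6166 and 7937), Meis1 (9245 and 15925) and Tal1 (7547 and 6300). Kit, the stem cell factor receptor, ranked 9171 in KO and 14160 in KI. In both whole lists 6 of the 30 had none, namely Gata2, Lmo2, Erg, Fli1, Hoxa9 and Hmga2, and 12 of 32 HSC surface and niche genes had none, Procr, Slamf1 and Tek included. Of lymphoid and stromal markers most were without a gene-end peak in either whole list: 19 of 24 B lymphoid genes (Pax5 included), 23 of 30 T and NK genes (Cd3e and Cd4 included) and 18 of 25 endothelial, stromal and mesenchymal genes (Pecam1 and Cdh5 included). Of other lineages those without one were 8 of 24 erythroid, 12 of 24 megakaryocyte, 16 of 31 granulocyte and monocyte, 16 of 20 mast cell, basophil and eosinophil and 7 of 24 dendritic cell and antigen presentation genes. Many markers of other lineages thus had a gene-end peak. In a bulk library fewer cells of a type and fewer open copies per cell cannot be told apart.

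Peaks in one list only were weak peaks of their own list. Ranked by score, 1 of the 2500 strongest KO peaks was KO-only and 1 of the 2500 strongest KI peaks was KI-only. In ranks 2501 to 5000 the counts were 20 and 19. In ranks 15001 to 17316 the shares reached 59.8% (95% Wilson interval 57.8 to 61.8) in KO and 63.3% (61.3 to 65.2) in KI. These intervals, like all below, are for counting error of peaks or genes alone. For shared peaks the ranks in the lists had a Spearman correlation of 0.76 over 13036 KO peaks, which share the caller and the genome. The cut fell at a score of 55.13 in KO, with 55.11 for the first peak left out, and at 77.93 in KI, with 77.92 for the first left out.

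**Figure D1:**
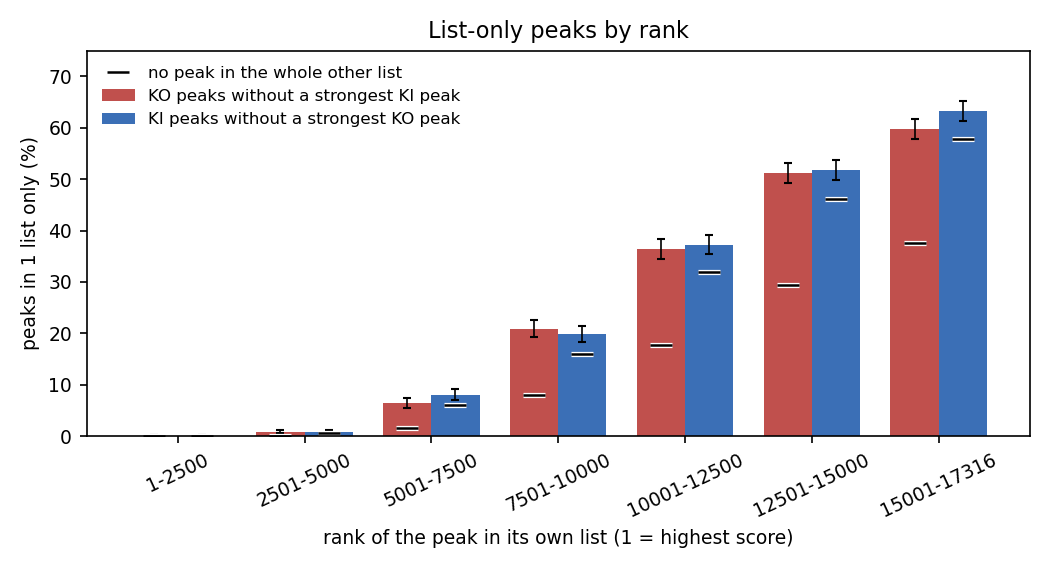
List-only peaks by rank. The x axis is the rank of a peak in its own list in 7 classes, the y axis the percent of peaks without an overlapping kept peak in the other list (red KO, blue KI), error bars are Wilson 95% intervals and black dashes the percent without any peak in the whole other list; both colours rise from 0.04% among the strongest 2500 to 59.8% and 63.3% in the weakest class.

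The call was softer for KO than for KI. Of the KO-only peaks, 1988 overlapped a KI peak that was called but ranked below the kept ones (KI ranks 17318 to 28353, median 21398), which left 2292, or 13.2% of the kept KO peaks, with no KI peak at all. Of the KI-only peaks, 549 overlapped such a weaker KO peak and 3860, or 22.3% of the kept KI peaks, had no KO peak. The whole lists differ in how much lies below the cut, 11057 peaks in KI and 1858 in KO, at an unknown read depth. There were thus more low-ranked KI peaks for a KO-only peak to overlap than the reverse. Ranks in the KO, KI and WT lists are printed side by side below as positions within each list, and a difference between them is no measure of change.

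KI-only peaks lay at genes more often than KO-only peaks did. Of KI-only peaks 27.1% (25.8 to 28.4) were at a gene end, against 17.4% (16.3 to 18.6) of KO-only peaks. Over an annotated start lay 19.9% (18.8 to 21.1) of KI-only and 10.7% (9.81 to 11.7) of KO-only peaks. KO-only peaks were more often intergenic, 40.5% (39.1 to 42) against 34.3% (32.9 to 35.7), and more often over 50 kb from any gene end, 26.3% against 19%. Both sets differed far more from the shared peaks, of which 58.6% in KO and 58.7% in KI were at gene ends and 49.4% and 50.2% over a start. List-only peaks were also narrower, with median widths of 375 bp in KO and 452 bp in KI against 617 and 723 bp for shared peaks. KO-only peaks inside genes lay in longer genes, of median length 111 kb, than KI-only peaks (93.2 kb) or shared peaks (87.7 kb in KO and 88 kb in KI).

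The WT library had a peak at 40.8% (39.4 to 42.3) of KI-only and at 26.4% (25.1 to 27.7) of KO-only peaks. Among shared peaks these shares were 86.3% and 86%. By gene, 59.9% (57.1 to 62.7) of those with a KI-only gene-end peak had a WT gene-end peak, and 45.7% (41.9 to 49.6) of those with a KO-only one. The WT list thus held KI-only peaks more often than KO-only ones, by peak and by gene. The WT and KO libraries share their re-analysed label and the KI library does not.

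**Figure D2:**
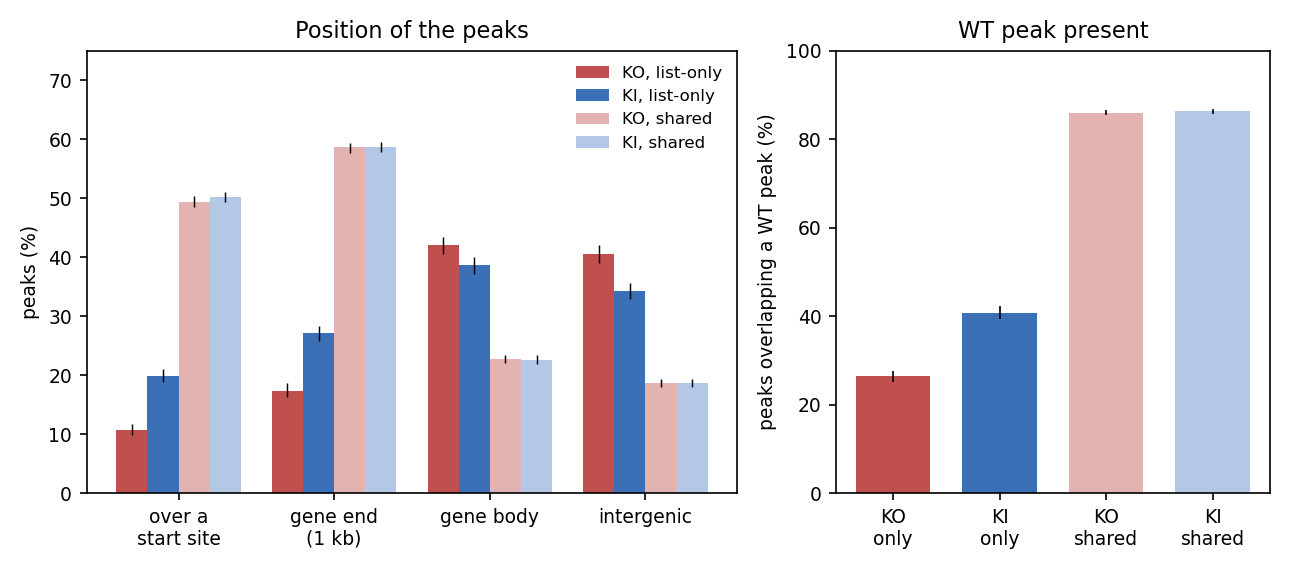
Where list-only and shared peaks lie. The left panel gives the percent of peaks over a start site, within 1 kb of a gene end, in a gene body or between genes, the right panel the percent that overlap a WT peak, with Wilson 95% intervals as error bars; KI-only peaks (dark blue) exceed KO-only peaks (dark red) at gene ends, 27.1% against 17.4%, and in overlap with WT, 40.8% against 26.4%.

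The share of list-only peaks also varied between chromosomes. KI-only peaks were 29.8% (25.9 to 34) of the kept KI peaks on chromosome 19 and 29.5% (26.9 to 32.2) on chromosome 11, where KO-only peaks were 20.9% (17.3 to 24.9) and 21.2% (18.8 to 23.8) of the kept KO peaks. KO-only peaks had their highest share, 28% (25.3 to 30.9), on chromosome 3, where 23.6% (21 to 26.4) of KI peaks were KI-only. On these 3 chromosomes, named for their high shares, the KO-only and KI-only shares ran in opposite directions from the 24.7% and 25.5% of the whole lists. Kept KO and KI peaks there numbered 436 and 484 on chromosome 19, 1020 and 1132 on 11 and 992 and 924 on 3. A shared peak mostly counts in both lists, so the list with more kept peaks on a chromosome has the higher list-only share. On chromosome 1 both shares were above those of the whole lists, 26.5% in KO and 26.2% in KI.

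By gene, 10467 of 21632 annotated genes had a gene-end peak in either kept list and 8603 had one in both. A KO-only gene-end peak and none in KI was seen at 630 genes (6.02%), and a KI-only gene-end peak and none in KO at 1138 genes (10.9%). The other 96 had a gene-end peak in 1 list that overlapped a peak of the other list lying beyond the 1 kb window. Against the whole other list, 214 KO-only and 914 KI-only genes still had none. The percentages 6.02% and 10.9% are the background for each gene list below, and a list near them is not set apart from all genes. Over the 34 lists, 787 of 1089 genes had a gene-end peak, of which 40 (5.08%) were KO-only and 96 (12.2%) KI-only. KI-only genes outnumbered KO-only genes in 23 lists, were equal in 5 and fewer in 6.

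**Figure D3:**
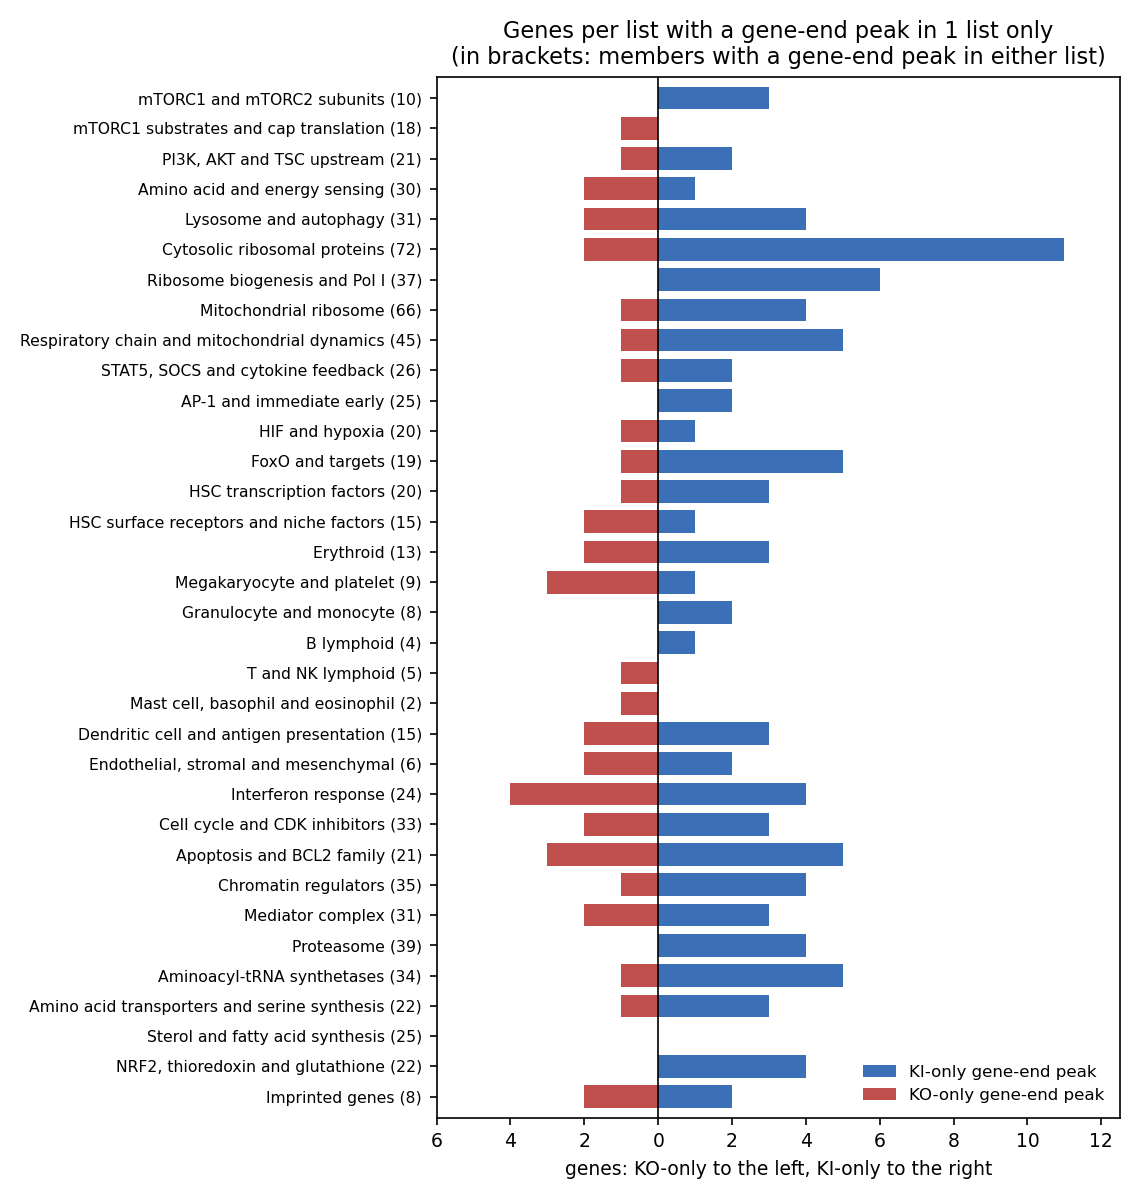
Genes of 34 lists with a gene-end peak in one list only. Bars to the left count KO-only genes and bars to the right KI-only genes, with the number of members that had a gene-end peak in either list in brackets; cytosolic ribosomal proteins have 2 KO-only and 11 KI-only genes, and sterol and fatty acid synthesis has none in either direction.

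The targeted gene and 2 genes of its complexes had start peaks in KI that KO lacked. Mtor itself had a KI peak over its start (chromosome 4, 148448229 to 148448836, score 210.27, rank 5075) and no KO peak there in the whole list, while WT had one at rank 569. Which part of Mtor is floxed is not given in the sources used here, so lost DNA and closed DNA at this start cannot be told apart. Peaks 4.0 kb before the start and 61.1 kb into the gene were shared by KO and KI. A second KI-only peak at the far end of Mtor (rank 14929) lay over the start of its neighbour Exosc10, a subunit of the RNA exosome. Telo2, which helps to assemble mTOR and related kinases, had a KI-only peak over its start (rank 11464) and no WT peak. Rictor, the scaffold of mTORC2, had a KI-only peak over its start (rank 11985) where WT also had a peak (rank 14905), and KO had instead a peak 2.7 kb before the start (rank 13390) that KI lacked. The other members with a peak had one in both lists, such as Akt1s1 (ranks 3483 in KO and 1053 in KI), Mlst8 (7634 and 4331), Deptor (8358 and 3387) and Rptor (14460 and 11702). In counts, 3 of 10 mTORC1 and mTORC2 genes, the targeted gene included, were KI-only (30%, 10.8 to 60.3) and none KO-only, and the interval includes the 10.9% of all genes.

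Genes around the complexes were called in both directions. Upstream, Tsc2, a brake on mTORC1 that shares its start region with the DNA repair gene Nthl1, was KI-only (rank 8372), as was Inpp5d, a lipid phosphatase of blood cells (rank 12281). Irs1, an insulin receptor adaptor, was KO-only (rank 13958) with a weaker KI peak. Grb10, an mTORC1 substrate that dampens insulin signalling, was KO-only (rank 13939) over its start, again with a weaker KI peak, and was the only call among 18 substrate and cap translation genes with a peak. Of the amino acid and energy sensors Castor2 (rank 7592) and Lamtor5 (17012) were KO-only and Prkaa2, a catalytic AMPK subunit, KI-only (13217), out of 30. Castor2 and Lamtor5 had weaker KI peaks, ranked 20895 and 18009. Of lysosome and autophagy genes Tfec (rank 10722) and Atg7 (8505) were KO-only, and Optn, an autophagy receptor (7816), Becn1 (10717) and Ctsa (13187) were among the 4 KI-only genes, out of 31. Atg7 had a weaker KI peak (18682) and Tfec none. The KI-only shares were 9.52% (2.65 to 28.9) upstream, 0% (0 to 17.6) for substrates, 3.33% (0.591 to 16.7) for sensors and 12.9% (5.13 to 28.9) for lysosome genes, with intervals that include the 10.9% of all genes.

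Ribosome genes, like all genes, were called in KI more than in KO. Of 72 cytosolic ribosomal protein genes with a gene-end peak 58 had one in both lists, 11 were KI-only (15.3%, 8.75 to 25.3) and 2 KO-only (2.78%, 0.765 to 9.57). The interval for KI includes the 10.9% of all genes, and that for KO the 6.02%. The KI-only genes included Rpl32 (score 225.73, rank 4522), Rps16 (8400), Rpl12 (9978), Rps15 (10359), Rps10 (10904), Rpl10a (12875), Rpl3 (12987), Rpl4 (13392) and Rpl6 (15151). Of the 11, Rps16 alone had a weaker KO peak (KO rank 17641), and WT had a peak at Rpl32, Rps16, Rpl12, Rps15 and Rpl3 among those named. The Rpl4 peak lay over the start of its neighbour Snapc5, and the Rpl12 peak also over that of Lrsam1. In the other direction stood Rps28 (rank 9392) and Rpl23 (11456), both with a weaker KI peak.

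Ribosome assembly genes followed with 6 KI-only (16.2%, 7.65 to 31.1) and no KO-only genes (0%, 0 to 9.41) of 37. The intervals include the 10.9% and the 6.02% of all genes. The 6 were Bop1, needed for maturation of the large subunit (score 242.54, rank 3964), Taf1a, a subunit of the RNA polymerase I selectivity factor (rank 6354), Rrp12 (10445), the box C/D protein Nop58 (12529), Nle1 (14888) and the polymerase I subunit Polr1e (15144). None of the 6 had a KO peak in the whole list. The Bop1 peak also lies at an end of Hsf1, the heat shock transcription factor, and cannot be assigned to either. WT had a peak at Bop1, Taf1a and Nle1. Mitochondrial ribosome genes had 4 KI-only genes (6.06%, 2.38 to 14.6), Mrpl28, Mrpl3, Mrpl21 and Mrps5, and 1 KO-only (1.52%, 0.268 to 8.1), Mrps25, of 66. Mrps25 had a weaker KI peak (25425), and Mrpl3 alone of the KI-only genes a weaker KO peak (17644).

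Other housekeeping lists had KI-only shares near the 10.9% of all genes, 14.7% (6.45 to 30.1) for synthetases, 10.3% (4.06 to 23.6) for the proteasome, 11.1% (4.84 to 23.5) for the respiratory chain and 9.68% (3.35 to 24.9) for Mediator. Aminoacyl-tRNA synthetases had 5 KI-only genes and 1 KO-only gene of 34, though Hars and Hars2 share 1 peak (rank 5845). The others were Vars (9549), Farsa (12237) and Vars2 (13996) in KI and Aars2 (14815) in KO. The proteasome had 4 KI-only genes of 39, Psmc1 (rank 4993), Psmb7 (7346) and the immunoproteasome genes Psmb10 (15336) and Psmb8 (15523). Respiratory chain and mitochondrial dynamics genes had 5 KI-only of 45, Rhot1, a GTPase that tethers mitochondria to motors (4918), Ndufs3 (9399), Ndufs7 (10321), Ppargc1a (11601) and Ndufb8 (16286), against 1 KO-only, Ndufa1 (10024). Mediator, the bridge between enhancer factors and polymerase II, had Med1 (4917), Med13l (6412) and Med15 (15487) in KI and Med24 (11070) and Med25 (15308) in KO, of 31. Each KO-only gene of these housekeeping lists had a weaker KI peak, Aars2 at rank 20668, Ndufa1 at 24027, Med24 at 22757 and Med25 at 21557. Of their KI-only peaks that at Psmc1 alone overlapped a weaker KO peak (19133). Sterol and fatty acid synthesis, a lipid programme downstream of mTORC1, showed no list-only gene: all 25 genes with a peak had one in both lists.

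Antioxidant and stress genes gave 4 KI-only (18.2%, 7.31 to 38.5) and no KO-only genes (0%, 0 to 14.9) of 22. The intervals include the 10.9% and the 6.02% of all genes. The 4 were Gpx1, a glutathione peroxidase (rank 7605), Keap1, which holds NRF2 in check (8831), G6pdx, the entry enzyme of the pentose phosphate pathway (9061), and mitochondrial Txnrd2 (11922). WT had a peak at the first 3, and Gpx1 alone had a weaker KO peak (18230). Among FoxO genes 5 of 19 were KI-only (26.3%, 11.8 to 48.8), Gadd45b (7354), Txnip (8691), Bcl2l11 (9750), Rictor and Foxo4 (13773), and Bbc3 (9986) was KO-only. Gadd45b and Txnip had weaker KO peaks, ranked 17742 and 17636, and Bbc3 a weaker KI peak, ranked 24722. Of 22 serine synthesis and amino acid transporter genes 3 were KI-only (13.6%, 4.75 to 33.3) and 1 KO-only (4.55%, 0.807 to 21.8), near the shares of all genes. KI-only were Phgdh, the first enzyme of serine synthesis (7286), Slc7a6 (8456) and the glycine transporter Slc6a9 (9172). Slc7a8 (9284) was KO-only.

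Heat shock genes held the strongest KO-only peak. A KO peak of 1221 bp over the paired starts of Hspa1a and Hspa1l, inducible and testis-type HSP70 genes (chromosome 17, 34971614 to 34972834), scored 297.26 and ranked 700. In WT a peak there ranked 6262. In KI it was split into peaks at ranks 20347 and 23040, below the kept ones. Hspa1b, the near-identical neighbour, had a peak in both (ranks 8449 in KO and 11603 in KI), and reads of the 2 coding sequences cannot always be placed. Several other chaperone genes had a kept peak in both lists. Among them Hspa8 ranked 835 and 908, Hsph1 229 and 549, Dnajb1 2395 and 1273 and Bag3 12005 and 3485 in KO and KI. Hsf1 was KI-only through the peak it shares with Bop1. Heat shock and DnaJ genes were added as a family after these values were seen. Of 56 with a peak 5 were KO-only (8.93%, 3.87 to 19.3) and 4 KI-only (7.14%, 2.81 to 17). The intervals include the 6.02% and the 10.9% of all genes. Besides the paired genes, Dnajc9 (13242), Dnajc15 (13243) and Dnajb3 (16350) were KO-only. KI-only were Dnaja2 (8850), Hspb7 (12163), Dnajc28 (15975) and Dnajc6 (16434).

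The strongest KI-only peak lay at Cish, an inhibitor induced by STAT5 that limits cytokine signals. It spanned 1618 bp (chromosome 9, 107295536 to 107297153), scored 314.78 and ranked 2189, while WT had a peak of rank 7741 and KO none. KO shared the neighbouring peaks with KI, over the start of Mapkapk3 (KO rank 5286, KI 6536) and 16.3 kb after the Cish start (8556 and 8198). Both STAT matches printed above lie under this peak, and STAT matches were found in 7.76% of all start windows. Other members of the feedback group were open in both lists: Socs1 (2377 and 2885), Socs2 (5980 and 7594), Socs3 (4555 and 4820) and Pim1 (1500 and 2523). Of 25 AP-1 and immediate early genes, the quick responders to such signals, Fosb (12591) and Egr3 (14817) were KI-only and none was KO-only. This is a KI-only share of 8% (2.22 to 25), below the 10.9% of all genes. The cytokine gene Osm was also KI-only (rank 9361) with a weaker KO peak, and Csf2rb, the shared receptor chain for GM-CSF and IL-3, was KO-only (9805) with a weaker KI peak. Of 26 cytokine feedback genes 2 were KI-only (7.69%, 2.14 to 24.1) and 1 KO-only (3.85%, 0.682 to 18.9).

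In the cell cycle list the Cdkn2 locus, which encodes inhibitors of the RB kinases among its products, differed by gene. Cdkn2a had a KO-only peak over an annotated start (89294373 to 89295694, rank 4798), with WT at rank 10637 and a pair of weaker KI peaks at ranks 18568 and 22065. A further annotated start of Cdkn2a, inside the gene (window chr4:89282143-89282442), had no peak in the KO, KI or WT list. The neighbouring Cdkn2b, on the same chromosome 4, had a KI-only peak over its start (rank 10664), with WT at rank 13729 and no KO peak. Aurkb was KO-only (15179), with a weaker KI peak (23760), and Rbl1 (9300) and Ccnb2 (11492) were KI-only with no KO peak. Of 33 genes 2 were KO-only and 3 KI-only, near the background.

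Apoptosis genes were called in both lists above the background, 3 KO-only (14.3%, 4.98 to 34.6) and 5 KI-only (23.8%, 10.6 to 45.1) of 21, with intervals that include it. KO-only were the death receptor gene Fas (rank 8838, over the start, no WT peak and no KI peak), the BH3-only gene Bbc3 (9986) and Bik (10385). Bbc3 and Bik had weaker KI peaks, ranked 24722 and 17998. KI-only were the BH3-only genes Bad (8480) and Bcl2l11 (9750), Casp8 (10255), Bax (13412) and Bcl2a1d (13835), and these 5 peaks had no KO peak over them. A further annotated start of Bcl2l11, inside the gene (window chr2:128127325-128127624), had peaks in both KO and KI. WT had a peak at Bad, Bcl2l11 and Casp8. Bad shares its start region with Gpr137, and Bcl2a1d belongs to a family of near-identical copies.

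Of 24 interferon genes 4 were KO-only and 4 KI-only (16.7% each, 6.68 to 35.9). The interval lies above the 6.02% of all genes for KO and includes the 10.9% for KI. The KO-only genes were the guanylate-binding protein gene Gbp2 (rank 12265, over its start, WT rank 7237), Ifit3 (12526), Cxcl9 (13894) and the transcription factor Irf1 (13928), of which Gbp2 alone had no KI peak. The KI-only genes were Irf3 (6474, at a start shared with Bcl2l12), Oasl1 (10752), Ifi35 (12776) and Ifi27 (13866), of which Irf3 alone had a weaker KO peak (18735). Both groups of mice received poly(I:C), which itself induces interferon. Antigen presentation genes were divided as well, with H2-D1, an MHC class I gene (8772), in KO and the MHC class II genes H2-Ab1 (15533) and H2-Aa (16483) in KI. H2-Aa had a weaker KO peak (18607). In that list Clec9a (14909) was also KO-only and Cd80 (11423) KI-only, which makes 2 and 3 of 15. The shares were 13.3% (3.74 to 37.9) and 20% (7.05 to 45.2), with intervals that include the 6.02% and the 10.9% of all genes. MHC genes have near-identical relatives and strain variants.

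Of 20 HSC transcription factors with a gene-end peak 3 were KI-only (15%, 5.24 to 36), the Polycomb gene Bmi1 (rank 8633), Runx1 (9308) and the corepressor Cbfa2t3 (12436), and 1 was KO-only (5%, 0.888 to 23.6), Hoxb4 (13679), with a weaker KI peak. Cbfa2t3 had a weaker KO peak (17900). Inside or within 10 kb of the 30 factors, 23 of 58 KO peaks and 22 of 57 KI peaks were list-only, against 3742 of 20610 and 4611 of 21326 for all genes. These totals count a peak once for every gene it lies near, so peaks in gene-dense regions weigh more. Of all kept peaks, each counted once, 24.7% in KO and 25.5% in KI were list-only. Among gene-body peaks these were 1800 of 4770 in KO and 1703 of 4625 in KI. Whether the factors differ from other genes of like length was not tested. Runx1, a master regulator of blood formation, differed along the gene. Its upstream start and its inner start 128.6 kb into the gene had KI-only peaks (ranks 9308 and 12644) with WT peaks at both, while KO had peaks 3.8 and 110.4 kb into the gene (13748 and 7648) where KI peaks ranked 18926 and 21160. The peaks 24.4 and 204.9 kb into the gene were shared. Of 15 HSC surface and niche genes with a peak Thpo (12953) and Itga2b (15487) were KO-only and Cd9 (15446) KI-only. These shares were 13.3% (3.74 to 37.9) and 6.67% (1.19 to 29.8), with intervals that include the 6.02% and the 10.9% of all genes. Angpt1, a ligand of Tek, had no gene-end call but a KI-only peak inside the gene at rank 4629, where WT had one at rank 8379, and 2 further KI-only peaks in or within 10 kb of the gene (12344 and 13573). KO had 1 peak there (15916), which KI shared.

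Among lineage markers, megakaryocyte genes were KO-only at Plek (14041), Itga2b and Rab27b (16613) and KI-only at Gp1ba (12143), of 9 with a peak, which is a KO-only share of 33.3% (12.1 to 64.6) against 6.02% of all genes. Plek and Itga2b had weaker KI peaks, ranked 17904 and 23767, and Rab27b alone of these KO-only genes had no KI peak. Erythroid genes were KO-only at Bcl11a, the repressor of fetal globin (score 134.99, rank 5010, a peak of 2101 bp where the KI list had 2 peaks at ranks 17885 and 20534), and at Car1 (8100), and KI-only genes included the red cell skeleton genes Sptb (8359) and Ank1 (16060). Of 13 erythroid genes with a peak 2 were KO-only (15.4%, 4.33 to 42.2) and 3 KI-only (23.1%, 8.18 to 50.3). Granulocyte genes were KI-only at Mmp8 (7409) and Fcgr1 (13930), 2 of 8 with a peak (25%, 7.15 to 59.1). The erythroid intervals include the 6.02% and the 10.9% of all genes, and the granulocyte interval the 10.9%. Mast cell, basophil and eosinophil genes gave 1 call, Prg3 in KO (10540), of 2 with a peak. B and T cell lists gave 1 call each, of 4 and 5 genes with a peak, Cd79a in KI (8387, a peak over the start of its neighbour Arhgef1) and Bcl11b in KO (17021). Of 6 stromal genes with a peak 2 were called each way (33.3%, 9.68 to 70), Col1a2 (14896) and Plvap (16727) in KO and Emilin1 (3383, a peak over the start of Khk) and Sox17 (11254) in KI. Weaker KI peaks also lay at Car1 (18141), Prg3 (20717), Bcl11b (23378) and Plvap (17377, close to the cut), and Col1a2 had none. Of the KI-only genes named here Sox17 alone had a weaker KO peak (17938). The part of other cell types in these calls was not tested.

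Chromatin regulators were KI-only at Kdm1a, a histone demethylase (rank 5672), Bmi1, the DNA methyltransferase gene Dnmt3b (9117) and Cbx2 (13859), each without a KO peak, and KO-only at Arid1a (12604), whose weaker KI peak ranked 27618. This is 4 (11.4%) and 1 (2.86%) of 35, against 10.9% and 6.02% of all genes. Imprinted genes, expressed from a single parental allele, gave Rasgrf1 (13318) and Grb10 in KO and Peg3 with Usp29 in KI through 1 shared peak (16111), of 8. Of 20 HIF and hypoxia genes 1 was KI-only and 1 KO-only (5% each, 0.888 to 23.6). Hif1an, which hydroxylates HIF1A, was KI-only (4707, WT rank 14346), and Egln3 was KO-only (10748) with a weaker KI peak. Hif3a had a KO peak inside the gene (4426, WT rank 7906) with a KI peak ranked 20349.

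Gene families gathered by symbol gave the following, beside 6.02% KO-only and 10.9% KI-only over all genes. Solute carriers, membrane transporters, counted 26 KI-only (14.1%, 9.77 to 19.8) and 9 KO-only (4.86%, 2.58 to 8.99) of 185, with Slc22a21 (6881), Slc34a1 (7456) and Slc35c1 (8288) the highest ranked in KI. The intervals of the carriers include both shares of all genes. RING finger genes counted 10 KI-only (18.2%, 10.2 to 30.3) and 3 KO-only (5.45%, 1.87 to 14.9) of 55, led by Rnf111 (5508), Rnf152 (6210) and Rnf157 (6640). The RING finger intervals include both shares too. Genes with Gpr or Adgr symbols, mostly G protein-coupled receptors, went the other way, 9 KO-only (24.3%, 13.4 to 40.1) and 4 KI-only (10.8%, 4.29 to 24.7) of 37, with KO ranks from 11663 (Adgrf1) to 17221 (Gpr183), and 2 of the 9 had no gene-end peak in the whole KI list. Their KO-only interval lies above the 6.02% of all genes, and their KI-only share is near the 10.9%. All 4 TNF family calls of 14 genes were KO-only, the receptors Tnfrsf11a (13591), Tnfrsf14 (14843) and Tnfrsf13c (16723) and the B cell survival factor Tnfsf13b (14047), and none of the 4 had a WT peak. Of these 4, Tnfrsf13c alone had no KI peak in the whole list. The TNF family interval for KO-only genes (28.6%, 11.7 to 54.6) lies above the 6.02% of all genes. That for KI-only genes (0%, 0 to 21.5) includes the 10.9%. Interleukin genes were KI-only at 6 (30%, 14.5 to 51.9), Il10rb highest (8618), and KO-only at 3 (15%, 5.24 to 36), Il6ra highest (8951), of 20. Their KI-only interval lies above the 10.9% of all genes, and their KO-only interval includes the 6.02%. Zfp zinc finger genes were close to the background in KO, 15 of 279 (5.38%), and below it in KI, 18 (6.45%, 4.12 to 9.97). Clustered histone genes were even, 4 and 4 of 50 (8% each, 3.15 to 18.8), with an interval that includes both shares of all genes. The highest of these was the KO-only peak over the start of H3c3 (rank 6078, no WT and no KI peak), which also reaches H2bc3.

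Among KO-only peaks at gene ends with a weaker KI peak the highest-ranked after Hspa1a lay at the gene named a, encoding the agouti signalling protein (rank 4224), Plekhm3 (4400), Mpg, a DNA repair glycosylase (4532), and Sbk2 with Sbk3 (4758). Among those without any KI peak the first at gene ends included Mtcl1 (5247), H3c3, the RAS relative Rras2 (7022), Plekhm2 (7077), Mfsd13a (7213), the ETS factor gene Elf4 (7935), Lancl3 (8033), Tmem44 (8047), Unc5c (8124), Reep4 (8151) and Zhx2 (8195). Of these, WT had a peak at Mtcl1, Rras2, Elf4, Tmem44 and Unc5c, at ranks between 8995 and 14436. Farther from genes came Lamp2 (4470, 17098 bp away), Polr3gl (5169), Anks1 (5557), Tent5c (6094), Sncaip (6097) and Slc30a7 (6114). With a weaker KI peak there were Smg1 (4357), Hif3a and Foxn3 (4521).

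Among KI-only peaks without any KO peak the highest at gene ends after Cish were Emilin1 with Khk (3383), Bop1, Tmco6 (4454), Rpl32, Hif1an, Med1, Rhot1, Mtor, Mrpl58 (5166), Nol7, a nucleolar protein (5227), and Pde3b, a cyclic nucleotide phosphodiesterase (5236), and WT had a peak at each of these except Nol7. Farther from gene ends stood a peak over the start of Mrpl48 near Rab6a (2857), Disc1 (3692), Dgkz (4031), Angpt1, Dynll2 (4729) and Gcnt2 (5106). With a weaker KO peak there were Bicdl1 (3078), Cdk17 (3626), Ggcx (4229), Fam234a (4761) and Psmc1, and farther away Tcf12 (4424), Efnb1 (5544) and Fuz (5584).

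Several genes held runs of list-only peaks inside the gene or within 10 kb. At least 3 KO-only peaks were found at 97 genes and at least 3 KI-only peaks at 83. In KO, Pde4d, a cyclic AMP phosphodiesterase 1302 kb long, had 7 KO-only peaks of 14 and 2 KI-only of 9. Cmip (204 kb) had 7 KO-only peaks of 8, while KI kept 1 peak there, the shared one at the start. Nav2 and Zfhx3 each had 6 KO-only peaks (of 11 and of 12), Plxnc1, a semaphorin receptor, 5 of 5 and Csgalnact1, a chondroitin sulfate synthase, 5 of 7. At Cmip 5 of the 7 KO-only peaks had no KI peak at all, and those 41.2 and 83.4 kb from the start overlapped KI peaks ranked below the kept ones. In KI, Frmd4a had 6 KI-only peaks of 7 and Sgms1, a sphingomyelin synthase, 5 of 7. Tbc1d2b had 5 of 6. Pard3b, a polarity gene, and Myo18a, a myosin, each had 4 KI-only peaks and no KO peak in the whole list. Rcsd1, Nfic, Ptp4a3 and Septin11 had 4 KI-only peaks each and no KO-only peak.

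**Figure D4:**
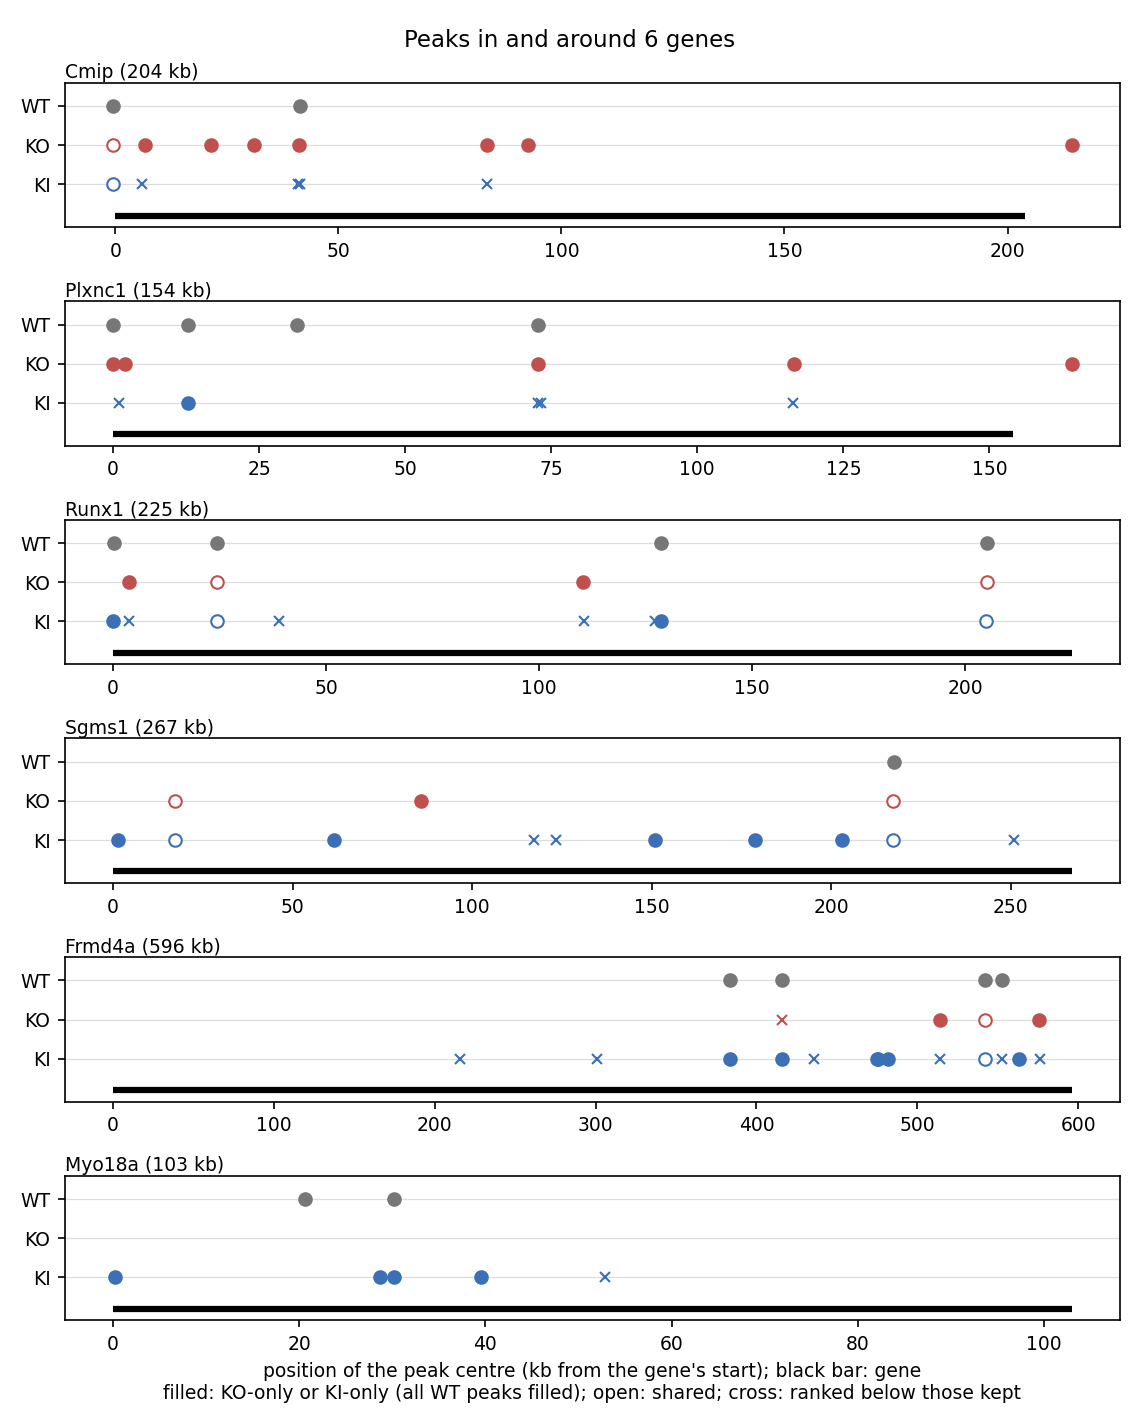
Peaks in and around 6 genes. The x axis gives the distance of each peak's centre from the gene's start in kb, rows are the WT, KO and KI lists, filled circles are list-only peaks (every WT peak is filled), open circles shared peaks and crosses peaks ranked below the 17316 kept; Cmip carries 7 filled KO circles against 1 open KI circle, and Myo18a carries 4 filled KI circles and no KO peak.

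The start-site windows, 21047 of 300 bases for 17275 genes, showed what else the sequences under list-only peaks shared. A CpG-rich window, with an observed over expected CpG ratio above 0.6, was found in 70% (67.1 to 72.7) of 1025 windows with a KI-only peak and 61.3% (57 to 65.4) of 509 with a KO-only peak. The share was 84.1% with peaks of both lists, 20.1% with no peak and 48.1% over all windows. List-only starts of both kinds thus stood between starts with peaks of both lists and starts with no kept peak. KI-only starts stood nearer to those with peaks of both lists.

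Of the motifs searched, on both strands, YY1 was the one whose KO-only and KI-only intervals did not overlap. YY1 AAGATGGC was found in 5.27% (4.06 to 6.81) of KI-only and 1.96% (1.07 to 3.58) of KO-only windows, against 5.37% with both and 3.07% over all. NRF1 GCGCATGC was found in 5.56% (4.32 to 7.14) and 2.75% (1.65 to 4.56), against 6.53% and 3.54%. ETS CCGGAAGT was found in 8.68% (7.11 to 10.6) and 6.48% (4.65 to 8.97), against 10.2% and 5.2%, and SP/KLF GGGCGG in 64.9% and 59.9%, against 72.3% and 46.7%. AP-1 TGANTCA was found in 6.09% (4.32 to 8.52) of KO-only and 4.29% (3.21 to 5.71) of KI-only windows, with 7.04% over all. The heat shock element GAANNTTC was found in 7.47% (5.49 to 10.1) and 4.78% (3.63 to 6.26), with 7.27% over all. NF-Y CCAAT was rarer in both sets, 32.8% in KO and 28.5% in KI, than in windows with peaks of both lists (42.2%). The intervals of KO-only and KI-only windows overlapped for NRF1, ETS, SP/KLF, AP-1, the heat shock element, NF-Y, GATA, STAT, E-box, CRE, RUNX, ISRE, FOX, the TATA box TATAAA and HOX/MEIS TGATTTAT. Several motifs share letters with CpG-rich sequence, and windows of 1 gene with several starts overlap.

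**Figure D5:**
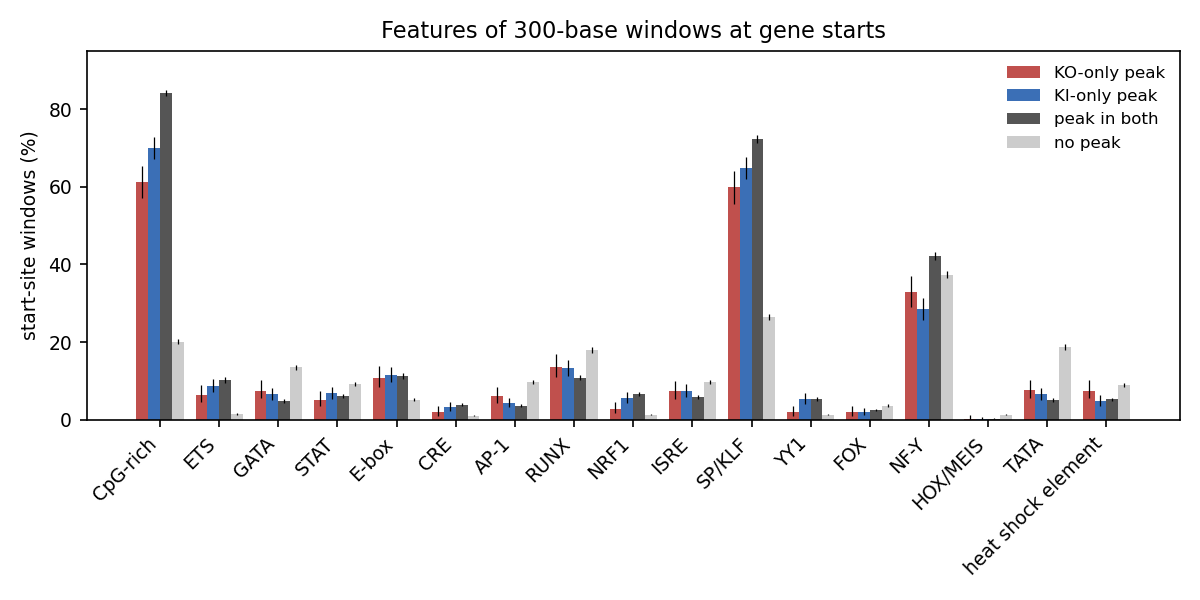
Sequence features of 300-base start-site windows. Bars give the percent of windows that are CpG-rich or hold each motif, for windows under a KO-only peak, a KI-only peak, peaks of both lists and no peak, with Wilson 95% intervals; CpG-rich windows make up 61.3%, 70%, 84.1% and 20.1% in that order.

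MicroRNA genes were checked by kept peaks within 1 kb of the hairpin. Unlike in the gene calls, a list-only peak was counted even where the other list had another peak near the hairpin. Of 1005 hairpins 99 had a peak in either list, 11 a KO-only and 14 a KI-only peak, with Mir425 in both counts. Of all kept peaks 24.7% in KO and 25.5% in KI were list-only. These are shares of the peaks of 1 list and not of hairpins with a peak in either, so the counts cannot be set against them directly. Mature sequences from RefSeq (GRCm38.p6) are given for 4 blood-expressed or widely expressed microRNAs among them, with the seed, bases 2 to 8, in capitals. These 4 seeds differ from one another.
miR-155-5p: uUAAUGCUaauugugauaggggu
miR-191-5p: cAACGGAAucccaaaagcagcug
miR-425-5p: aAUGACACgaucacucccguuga
miR-423-5p: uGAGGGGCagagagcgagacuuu
Mir155, known for its part in immune cells and in myeloid expansion, had a KO-only peak on chromosome 16 (84713019 to 84713484, rank 10950) and neither a KI nor a WT peak. The clustered Mir191 and Mir425 had a KI-only peak (rank 6599) with a weaker KO peak, which also lies at the ends of Dalrd3 and Ndufaf3, and Mir425 had a KO-only peak on its other side (13108). Mir423 had a KI-only peak (13107) at the end of Nsrp1. Further KI-only peaks lay at Mir140 (14036), Mir92b (15823) and Mir574 (15209 and 15364). A peak near a hairpin may belong to a host or neighbouring gene.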

How the data were processed

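Adult HSC of 3 genotypes were profiled by ATAC-seq, 1 library each, and the KO and KI libraries were compared, with WT as reference. The authors deposited 1 peak list per library without a header. The last of its 5 columns is a score that the authors' caller gave each peak (peak names are those of MACS), with a lowest value of 50, read here as 10 times -log10 p and used to rank peaks within a list. The build is mm10, and CASAVA is named, per the submitters' processing notes. For the aligner, the caller's version, a control, duplicates and the read shift, the choice made is not given in the sources used here, and the read depth is unknown. No peak list combines libraries.

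The 17316 highest-scoring peaks of each list on chromosomes 1 to 19 and X were compared by overlap of 1 bp, with ties by chromosome and start (Python 3.11.15, pandas 2.3.3, numpy 2.4.6, scipy 1.17.1). The overlap code was tested on simulated data, and bedtools 2.31.1 gave the same 4280 and 4409 peaks. Genes, start windows and microRNAs came from RefSeq tables of GRCm38.p6, in which all genes of the 34 lists were matched by symbol. Intervals are 95% Wilson intervals. The members and lists were chosen with earlier results of these data known, and the heat shock families and element were added after values were seen. Named are Mtor, the 12 highest-scoring list-only peaks at gene ends and 6 farther away (nearest gene within 50 kb) per direction without a peak in the other list, 5 and 3 with a weaker one, the 5 genes with most list-only peaks, and up to 5 members per list and direction. Other names were chosen after their values were seen, and some genes that the rule names are not reported here. Alternatives changed the number of peaks kept, the overlap, the peak width and the gene-end window.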

Additional observations from a re-analysis of the deposited data

How the results depend on the processing

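Of 50 recomputed values 26 stayed within the limits set, 1.5 times for a count and the 95% interval of the reported value for a share, and 24 did not. Within the limit for counts, KO-only and KI-only peaks came to 5984 and 5986 with peaks reduced to 200 bp, and KO-only peaks to 3065 with all peaks kept. The KO-only and KI-only peak counts were 1036 and 1036 with 5000 peaks kept and 2080 and 2099 with 10000. With all peaks of both lists KI-only peaks numbered 12260, and 2292 KO-only peaks were absent from the whole KI list. Genes with a KO-only gene-end peak numbered 279 with all peaks and 214 by absence from the whole KI list, and genes with a KI-only one 1843 with all peaks. The gene-end shares of KO-only and KI-only peaks were 59.6% and 73.8% with 5000 peaks, 30% and 50.1% with 10000, 13.7% and 19% with all peaks, 13.3% and 25.5% by absence from the whole other list, 32.5% and 38.5% with peaks reduced to 200 bp, 14.3% and 24.2% for ends within 500 bp and 23.2% and 33.1% within 2500 bp. With peaks within 500 bp counted as shared the KO-only share was 16.2%. The KI-only share exceeded the KO-only share in each of the 9 alternatives, and the cause was not tested. With all peaks kept the lists are unequal, and fewer KO peaks are there to be matched.

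No paired analysis was possible because each genotype had 1 library and no test was run. Replicates could not be left out for the same reason. Read depth is unknown, so a missing peak means one not called in that list and not closed chromatin.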
